A study of Rattus norvegicus with 65 samples.

Results

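The genes described here are the small heat shock proteins of muscle Hspb1, Hspb2, Hspb3, Hspb6, Hspb7, Hspb8 and Cryab, together with Bag3, the co-chaperone that partners Hspb8. The rule is a list of 8 rat symbols and holds no measured value. All 8 were among the 14554 genes with counts, and all 8 passed the filter on low counts, with between 215 (Hspb3, the lowest library) and 81162 (Hspb7, the highest library) estimated counts. RNA was sequenced from cultured heart muscle cells of newborn rats (primary neonatal cardiomyocytes), which were serum starved and then exposed to a drug or to its solvent for 6 or 24 hours. The drugs were 10 mM 5-fluorouracil (5FU), 2.5 mM acetaminophen (Ace) and 1.25 μM doxorubicin (Dox). The 5FU wells held 1% DMSO and were set against DMSO1, which is 1% DMSO alone, whereas the Ace and Dox wells held 0.25% DMSO and were set against DMSO2, which is 0.25% DMSO alone. The 65 libraries form 10 groups of 6 or 7. The cells came from 3 litters and were combined into 1 pool, which was then plated. A group thus holds parallel wells and no separate animals. The p-values measure the spread between such wells, estimated for each gene over all 10 groups together.

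Small heat shock proteins share an alpha-crystallin domain and form oligomers that hold unfolding proteins in a soluble state without using ATP. In heart and skeletal muscle they sit at the Z-disc, at desmin filaments and on actin, where they protect the contractile apparatus during stretch, ischemia and heat. Some of them are targets of heat shock factor 1, and others are set mainly by the muscle gene program. Bag3 bridges Hspb8 to Hsp70 in the removal of damaged filamin, a route called chaperone-assisted selective autophagy.

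The start regions of the genes differ in letters that are background for the 2 kinds of regulation. The RefSeq table of GRCr8 holds a promoter for 6 of the 8 genes, and Hspb2 and Cryab have no entry in it. The 250 bases before each start were searched on both strands for GAANNTTC and TTCNNGAA, the inverted units of a heat shock element, for the 2 longer forms that join a further unit to either of them, for a MEF2-like site (CTA and TAG with any 4 bases between them), and for TATAAA, which lies inside the MEF2-like match of Hspb3. The motifs of the heat shock element overlap each other, since the longer forms contain the shorter ones. Capitals mark the matches to GAANNTTC, TTCNNGAA and the MEF2-like site. Hspb1, Hspb6 and Bag3 are shown because they hold the unit GAAGTTTC, and Hspb3 and Hspb7 because they hold the MEF2-like site.
Hspb1, chr12:26432302-26432551, minus strand: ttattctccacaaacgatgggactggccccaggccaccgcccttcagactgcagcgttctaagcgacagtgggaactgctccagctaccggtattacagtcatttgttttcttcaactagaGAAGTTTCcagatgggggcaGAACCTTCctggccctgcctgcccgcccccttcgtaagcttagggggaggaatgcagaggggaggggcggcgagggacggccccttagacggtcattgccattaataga
Hspb6, chr1:94934122-94934371, plus strand: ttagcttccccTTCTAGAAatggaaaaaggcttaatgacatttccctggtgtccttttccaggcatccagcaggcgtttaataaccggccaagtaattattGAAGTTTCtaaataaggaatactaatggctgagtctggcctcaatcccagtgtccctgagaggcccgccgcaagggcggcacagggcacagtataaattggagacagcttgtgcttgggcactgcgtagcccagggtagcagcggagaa
Bag3, chr1:192533210-192533459, plus strand: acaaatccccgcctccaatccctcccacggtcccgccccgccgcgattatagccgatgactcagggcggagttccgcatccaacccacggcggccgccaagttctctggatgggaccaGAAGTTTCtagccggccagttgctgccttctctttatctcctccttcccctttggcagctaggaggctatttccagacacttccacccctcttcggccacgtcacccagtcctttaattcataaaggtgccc
Hspb3, chr2:47029166-47029415, minus strand: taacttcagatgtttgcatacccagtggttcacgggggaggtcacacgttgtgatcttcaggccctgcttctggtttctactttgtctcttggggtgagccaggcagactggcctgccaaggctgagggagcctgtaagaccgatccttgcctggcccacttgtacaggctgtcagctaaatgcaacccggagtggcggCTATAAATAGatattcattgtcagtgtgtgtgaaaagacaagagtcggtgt
Hspb7, chr5:159010509-159010758, plus strand: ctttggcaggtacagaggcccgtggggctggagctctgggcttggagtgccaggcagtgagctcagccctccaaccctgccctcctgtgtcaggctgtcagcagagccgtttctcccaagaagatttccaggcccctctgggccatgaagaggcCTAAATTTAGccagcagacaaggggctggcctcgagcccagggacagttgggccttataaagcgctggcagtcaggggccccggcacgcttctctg
In Hspb8 the start used by the table lies inside the annotated gene, and only its match is shown, with 6 bases on either side, at 23 bases before that start.
Hspb8 match: ccaggaGAAGTTTCtaggcg
GAANNTTC was found in 4 of the 6 promoters (Hspb1, Hspb6, Hspb8 and Bag3) and in 7.23% of all 33469 promoters of the same length. In each of the 4 genes a match read GAAGTTTC, which 1.22% of all promoters held. This word is the form of GAANNTTC that these 4 genes share, so 7.23% is the share to set beside them. GAAGTTTC began 129 bases before the start in Hspb1, 149 in Hspb6 and 132 in Bag3. Hspb6 also held TTCNNGAA, which 7.48% of promoters held. The MEF2-like site was in Hspb3, 51 bases before the start, and in Hspb7, 96 bases before it, and in 3.41% of all promoters. TATAAA was in Hspb3, Hspb6 and Hspb7 and in 12.9% of all promoters. Neither of the longer heat shock forms was in any of the 6 windows (0.663% of all promoters for each form). A match describes the letters of a window and does not show that a factor binds there.

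The totals of the 65 libraries ran from 14332827 to 25738297 estimated counts. The cardiomyocyte label was checked against 10 marker genes, all of which were in the table and none of which was at 0 in any library, and their summed level was 16100 to 21000 CPM (counts scaled to a common library size) after Dox for 24 hours and 27800 to 55900 CPM in the other groups. Markers of other cells were also present, and the 8 fibroblast genes together ranged from 1920 to 19900 CPM, the 6 endothelial genes from 18.7 to 284 CPM, the 5 of smooth muscle and pericytes from 156 to 490 CPM and the 7 of macrophages from 27.7 to 70.8 CPM. In such bulk samples, fewer cells of a type and less RNA per cell cannot be told apart. Libraries are numbered within their group only as names. Library 3 of DMSO1 at 6 hours was the lowest of its group for 7 of the 8 genes, where 22.3% of all genes had it lowest. Library 7 of Dox at 6 hours was likewise the lowest for 7 of the 8, against 21.7% of all genes. Library 7 of Dox at 24 hours, the deepest of all, was the lowest of its group for Cryab, Hspb1, Hspb2 and Hspb6, against 25% of all genes. Counts of genes called are therefore also given without these 3 libraries where they moved by more than 1.5 times. The 3 were singled out by the levels of these same 8 genes. Calls gained without them follow in part from that choice and are no separate support.

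The levels in the 10 groups are given in CPM after scaling with TMM factors, and they are compared between groups for 1 gene at a time, since the values are not per gene length. The controls were compared over time first, as the mean of both DMSO shares and then in each share. In the mean, all 8 genes were lower at 24 than at 6 hours at a false discovery rate (FDR) below 0.01, the threshold used throughout, in edgeR's quasi-likelihood test with Benjamini-Hochberg adjustment over all 14554 genes. In the same comparison 64.6% of all genes were called, 32.7% as higher and 31.9% as lower. The falls were unlike in the 2 shares. In 1% DMSO all 8 genes were lower, against 53.8% of all genes called (25.9% higher and 27.9% lower), with a median log2 fold change of -0.97. In 0.25% DMSO 6 of the 8 were lower, against 52.6% called (27% higher and 25.5% lower), with a median of -0.38. Cryab had a log2 fold change of -1.99 in 1% DMSO, from a mean of 1920 to 482 CPM, and of -1.49 in 0.25% DMSO, from 1200 to 427 CPM. Hspb7 had -1.31 in 1% DMSO, from 3290 to 1330 CPM, and -0.76 in 0.25% DMSO, from 2310 to 1360 CPM. Hspb6 was lower in 1% DMSO, from 309 to 182 CPM (log2 fold change -0.77, SE 0.14), and stood at 158 and 153 CPM in 0.25% DMSO, where it was not called (-0.04, 95% interval -0.31 to 0.22). Hspb1 likewise went from 593 to 265 CPM in 1% DMSO (log2 fold change -1.16, SE 0.10), and its 350 and 297 CPM in 0.25% DMSO were not called (-0.24, 95% interval -0.43 to -0.05).

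The difference between the 2 time changes was tested in the same fit. It was lower in 1% DMSO for 4 of the 8 genes, Hspb1 (-0.92, SE 0.14), Hspb8 (-0.77, SE 0.13), Hspb3 (-0.56, SE 0.11) and Hspb7 (-0.55, SE 0.12), and higher for 0, against 3.82% of all genes called (0.797% higher and 3.02% lower). Without the 3 libraries named above, Hspb6 (-0.86) and Cryab (-0.58) were also called, making 6 genes. Leaving out the low library 3 of DMSO1 at 6 hours raises that group by construction, so these added calls are no separate support. Hspb1 also passed in 0.25% DMSO, which holds none of these 3 libraries, at -0.24 with an SE of 0.06 in place of 0.095. Markers of other cell types rose over time in the mean of the controls, with 8 of 8 fibroblast genes, 6 of 7 macrophage genes and 4 of 5 genes of smooth muscle and pericytes higher and 0 lower. Of the endothelial genes 4 of 6 were higher and 2 lower, and of the cardiomyocyte genes 3 of 10 were higher and 2 lower. The fibroblast sum went from 6500 to 10900 CPM at 6 hours to 9970 to 19900 CPM at 24 hours in 1% DMSO, and from 9690 to 14500 to 15100 to 18900 CPM in 0.25% DMSO. The part of these markers in the falls was not tested.

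**Figure D1:**
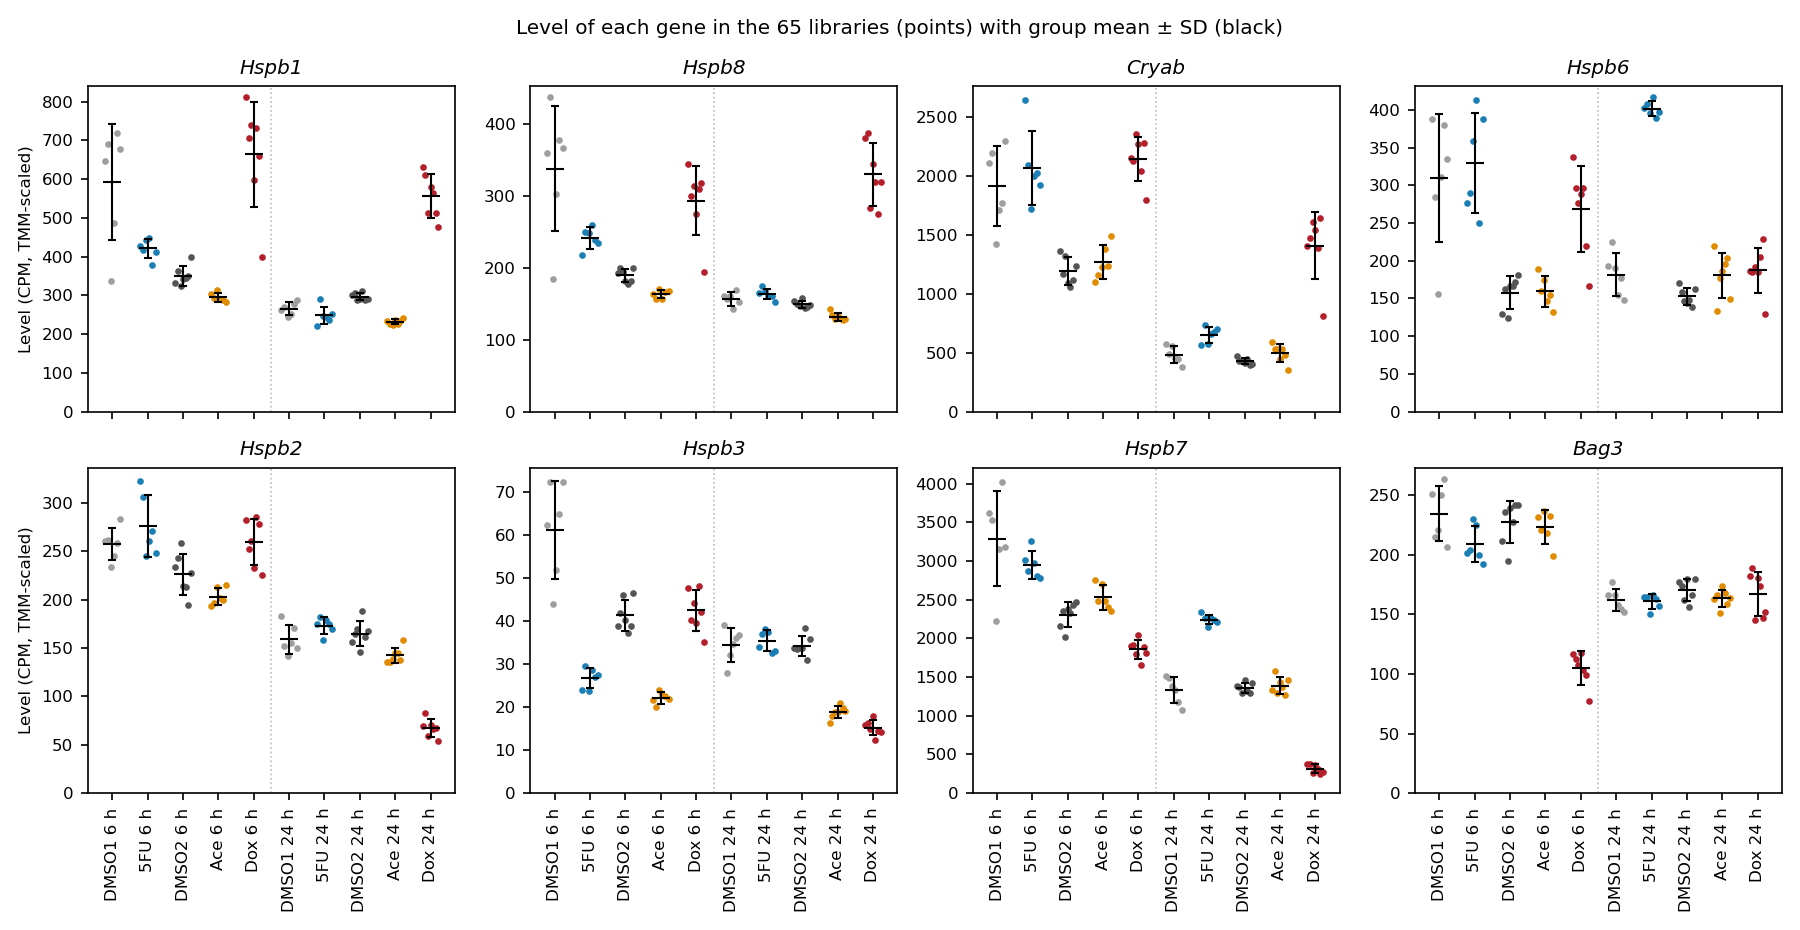
Level in CPM (TMM-scaled, linear axis from 0) of each of the 8 genes in the 65 libraries (points) by group, with the group mean and SD in black and a dotted line between 6 and 24 hours. Hspb7 falls to 243 to 383 CPM after Dox for 24 hours, below every other group, and Hspb6 sits at 389 to 417 CPM after 5FU for 24 hours.

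Each gene had its own order of groups. Hspb1, a ubiquitous actin-binding chaperone also called Hsp27, had its highest mean after Dox for 6 hours (663 CPM) and its lowest after Ace for 24 hours (232 CPM), a 2.86-fold span. Its 3 highest groups, Dox at 6 hours, DMSO1 at 6 hours and Dox at 24 hours, overlapped one another, and the third of them lay wholly above the group below it. Hspb8, the partner of Bag3, spanned 2.56-fold, from 338 CPM in DMSO1 at 6 hours to 132 CPM in Ace at 24 hours. The 3 groups at its top were the same as those of Hspb1, in another order, and overlapped one another. Cryab, the alpha-B crystallin that coats desmin, spanned 5.03-fold, from 2150 CPM after Dox for 6 hours to 427 CPM in DMSO2 at 24 hours. Its 6 highest group means formed a chain of overlapping ranges that ended at DMSO2 at 6 hours, whose lowest library (1060 CPM) was above the highest of 5FU at 24 hours (736 CPM).

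Hspb6, a chaperone phosphorylated by protein kinase A in heart and also called Hsp20, ran from 401 CPM after 5FU for 24 hours to 153 CPM in DMSO2 at 24 hours. Every group of Hspb6 overlapped the next in the order. Hspb2, a chaperone bound to the myotonic dystrophy kinase, ran from 276 CPM after 5FU for 6 hours to 67 CPM after Dox for 24 hours, and its lowest 2 groups, Ace and Dox at 24 hours, did not overlap. Hspb3, which forms a complex with Hspb2, ran from 61.2 CPM in DMSO1 at 6 hours to 15.2 CPM after Dox for 24 hours. Hspb7, a cardiovascular chaperone that binds filamin C, had the widest span of the list, 10.4-fold, from 3290 CPM in DMSO1 at 6 hours to 315 CPM after Dox for 24 hours. Bag3 had the narrowest, 2.23-fold, from 235 CPM in DMSO1 at 6 hours to 105 CPM after Dox for 6 hours, and its lowest group stood wholly apart from the group above it.

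Dox at 6 hours was compared with DMSO2 to see how the genes stood early in the exposure to an anthracycline. Of the 8 genes, 5 were higher and 2 lower, and 64.2% of all genes were called in this comparison, 31.5% as higher and 32.7% as lower. The median log2 fold change of the 8 was 0.41, against 0.003 over all genes. In the same comparison all 6 endothelial markers were lower, with sums of 57.2 to 85.9 against 173 to 220 CPM, as were 6 of 8 fibroblast markers (7760 to 10200 against 9690 to 14500 CPM). Of the smooth muscle and pericyte genes 3 of 5 were lower and 1 higher, with sums of 156 to 228 against 311 to 444 CPM, and of the macrophage genes 3 of 7 were higher and 1 lower (44.9 to 54.2 against 39.7 to 46.6 CPM). Of the cardiomyocyte markers 4 of 10 were higher and 4 lower, with sums of 39600 to 45400 against 38900 to 44900 CPM, and the part of any of these lists in the changes was not tested. The ranges of the groups did not overlap for 2 of the 8, Cryab and Bag3, and for 42.6% of all genes.

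Hspb1 had a lowest, median and highest level of 399, 707 and 811 CPM after Dox for 6 hours and of 324, 344 and 399 CPM in DMSO2. The 6 libraries of Dox other than library 7 lay above every control, and library 7 reached the level of the highest control. The log2 fold change was 0.92 (SE 0.095, edgeR FDR = 3.2e-13). Cryab stood at 1800, 2150 and 2360 CPM against 1060, 1170 and 1360 CPM, so that every Dox library was above every control (log2 fold change 0.85, SE 0.11, edgeR FDR = 1.9e-10). Hspb6 stood at 166, 289 and 337 CPM against 124, 166 and 181 CPM, and only library 7 and the controls shared a range (log2 fold change 0.77, SE 0.13, edgeR FDR = 5.2e-07). Hspb8 stood at 194, 309 and 344 CPM against 177, 193 and 199 CPM, again with library 7 alone inside the controls (log2 fold change 0.63, SE 0.090, edgeR FDR = 8.4e-09). Hspb2 rose little, from a median of 227 to 261 CPM (log2 fold change 0.20, edgeR FDR = 0.0063), and this call was lost in 7 of 14 fits that left out 1 library, with values of 0.17 to 0.23, and in a fit of the compared groups alone.

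Bag3 went the other way at 6 hours. Its lowest, median and highest level after Dox was 77.4, 108 and 118 CPM, against 195, 236 and 242 CPM in DMSO2. Every Dox library was below every control (log2 fold change -1.11, SE 0.064, edgeR FDR = 6.4e-24). Hspb7 fell by 0.31 on the log2 scale, from a median of 2350 to 1890 CPM (SE 0.082, edgeR FDR = 0.00066), with overlapping ranges. Hspb3 had medians of 42.1 and 40.1 CPM and was not called (log2 fold change 0.04, 95% interval -0.12 to 0.19).

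**Figure D2:**
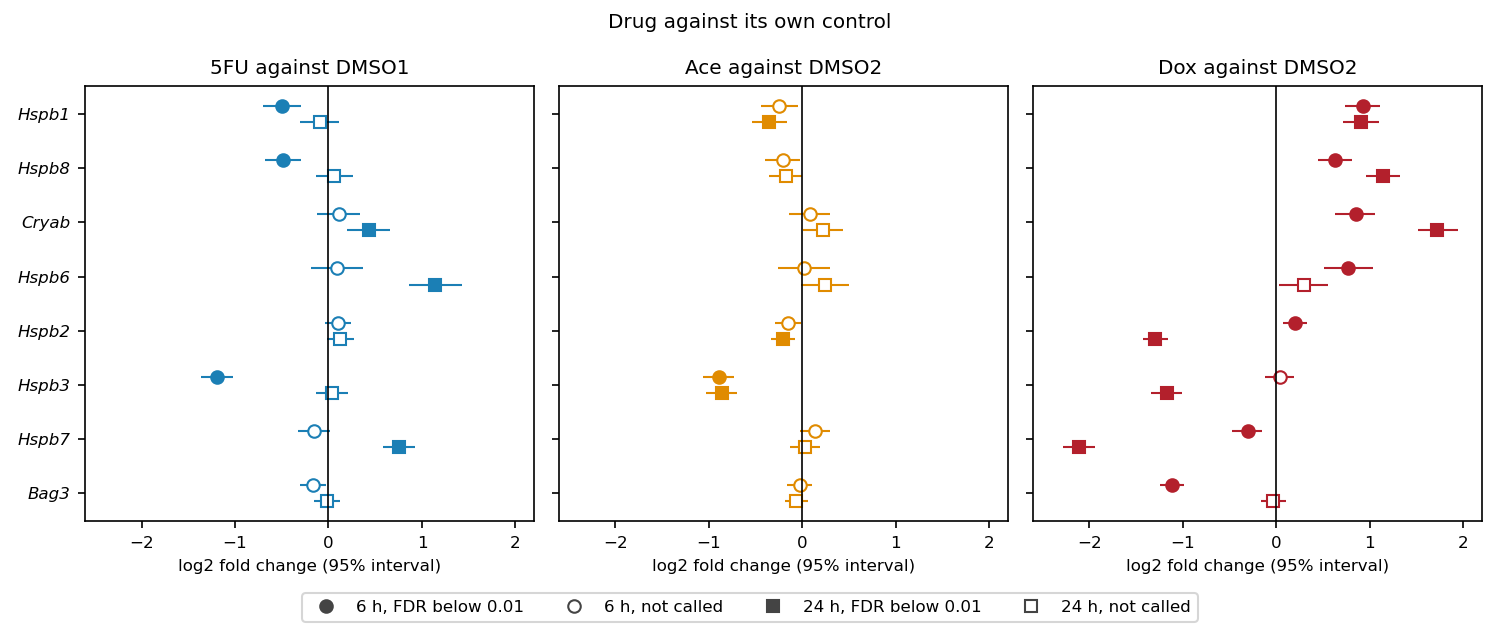
log2 fold change of each of the 8 genes, per drug and relative to the matching DMSO group, at 6 hours (circles) and 24 hours (squares), with 95% intervals as lines; filled symbols have an FDR below 0.01. After Dox, Bag3 is at -1.11 at 6 hours and at -0.03 at 24 hours, whereas Hspb7 goes from -0.31 to -2.11; Hspb3 is near -0.9 at both times after Ace.

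After Dox for 24 hours, 3 of the 8 genes were higher (Cryab, Hspb8 and Hspb1) and 3 lower (Hspb7, Hspb2 and Hspb3), against 81.4% of all genes called, 40.4% as higher and 41% as lower, so that the share of the 8 in each direction was close to that of all genes. The 6 genes also had ranges that did not overlap, as had 68.2% of all genes. The median log2 fold change of the 8 was 0.13, against 0.003 over all genes.

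Cryab had a lowest, median and highest level of 811, 1470 and 1640 CPM after Dox for 24 hours and of 393, 427 and 476 CPM in DMSO2. Library 7 was the 811, and the other 6 libraries were at or above 1390 CPM, so that even the lowest Dox library exceeded every control (log2 fold change 1.72, SE 0.11, edgeR FDR = 8.2e-23). Hspb8 stood at 275, 319 and 387 CPM against 144, 148 and 158 CPM (log2 fold change 1.14, SE 0.091, edgeR FDR = 3.5e-18). Hspb1 stood at 477, 564 and 632 CPM against 288, 291 and 311 CPM (log2 fold change 0.91, SE 0.095, edgeR FDR = 2.4e-13). For these 3 genes all 7 Dox libraries were above all 7 controls. Hspb6, at 130, 186 and 229 CPM against 139, 148 and 170 CPM, had a log2 fold change of 0.29 and an edgeR FDR of 0.034, and it passed the threshold without library 7 of Dox (0.39) and in a fit of the compared groups alone (0.29, edgeR FDR = 0.0051).

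Hspb7 had a lowest, median and highest level of 243, 318 and 383 CPM after Dox for 24 hours, against 1290, 1370 and 1460 CPM in DMSO2. It was 0.231 times its control (log2 fold change -2.11, SE 0.085, edgeR FDR = 1e-32), and 799 of the 14554 genes had a larger fall. Hspb2 stood at 54.2, 67.3 and 83.3 CPM against 146, 164 and 188 CPM (log2 fold change -1.30, SE 0.069, edgeR FDR = 1.3e-26). Hspb3 stood at 12.4, 15 and 17.9 CPM against 30.9, 33.7 and 38.4 CPM (log2 fold change -1.17, SE 0.084, edgeR FDR = 2.4e-20). The fall of these 3 muscle genes went with lower levels of the cardiomyocyte markers, of which 8 of 10 were lower in the same comparison with a median log2 fold change of -2.77. The summed markers were 16100 to 21000 CPM after Dox and 40600 to 51100 CPM in DMSO2. Of the defining genes, Tnnt2 (cardiac troponin T) had medians of 5760 and 6780 CPM, Myh6 of 1030 and 17900 CPM, and Actn2 of 1160 and 1760 CPM. The part of cell composition in the fall was not tested. The fibroblast markers moved in the same direction, with all 8 lower and sums of 1920 to 4060 against 15100 to 18900 CPM. All 6 endothelial markers were lower too (18.7 to 42.2 against 214 to 284 CPM). Of the macrophage genes 6 of 7 were lower and 1 higher (27.7 to 38.5 against 55.6 to 70.1 CPM). Of the smooth muscle and pericyte genes 4 of 5 were lower and 1 higher (166 to 279 against 382 to 490 CPM). Bag3 was not called at 24 hours, with medians of 174 CPM in both groups (log2 fold change -0.03, 95% interval -0.16 to 0.10).

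5FU was compared with DMSO1 at both times. At 6 hours, 3 of the 8 genes were lower and 0 higher, against 47.9% of all genes called, 23.4% as higher and 24.5% as lower. The other 5 were not called and had log2 fold changes between -0.17 and 0.11. Hspb3 had a lowest, median and highest level of 23.8, 27.3 and 29.6 CPM after 5FU and of 43.8, 63.5 and 72.2 CPM in DMSO1. The groups did not overlap, as for 28.2% of all genes, and library 3 was the lowest control (log2 fold change -1.19, SE 0.085, edgeR FDR = 5.9e-19). Hspb1 stood at 379, 422 and 448 CPM against 337, 662 and 719 CPM (log2 fold change -0.49, SE 0.10, edgeR FDR = 3.4e-05), and Hspb8 at 217, 243 and 260 CPM against 184, 363 and 437 CPM (log2 fold change -0.48, SE 0.097, edgeR FDR = 1.9e-05). For both, library 3 of DMSO1 alone lay below the 5FU libraries. Without the 3 libraries named above, 5 genes were lower, with Hspb7 (-0.25) and Bag3 (-0.19) added. The call of Hspb8 was lost in a fit of the compared groups alone (edgeR FDR = 0.012).

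At 24 hours after 5FU, 3 of the 8 genes were higher and 0 lower, against 55.8% of all genes called, 28% as higher and 27.8% as lower. Hspb6 had a lowest, median and highest level of 389, 399 and 417 CPM after 5FU, against 148, 184 and 225 CPM in DMSO1. The 6 treated libraries lay in a narrow band, with a coefficient of variation of 2.48%, and far above every control (log2 fold change 1.14, SE 0.14, edgeR FDR = 2.5e-10). In this comparison 298 of the 14554 genes had a larger increase. Hspb7 stood at 2150, 2250 and 2340 CPM against 1080, 1360 and 1510 CPM, also without overlap (log2 fold change 0.76, SE 0.089, edgeR FDR = 3.8e-11). Ranges did not overlap for these 2 of the 8 genes and for 42.9% of all genes. Cryab stood at 562, 665 and 736 CPM against 382, 471 and 571 CPM (log2 fold change 0.43, SE 0.11, edgeR FDR = 0.00079), with a small overlap. The 3 genes that were lower at 6 hours were not called. Hspb3 had medians of 35.5 and 35.4 CPM (log2 fold change 0.04, 95% interval -0.13 to 0.21), and the log2 fold change was -0.10 for Hspb1 and 0.06 for Hspb8. The cardiomyocyte markers summed to 27800 to 29900 CPM after 5FU and to 38300 to 44400 CPM in DMSO1, with 5 of 10 lower and 1 higher. All 8 fibroblast markers were lower (median log2 fold change -1.38, sums of 5170 to 5840 against 9970 to 19900 CPM), as were 4 of 6 endothelial markers (119 to 140 against 175 to 238 CPM). Of the smooth muscle and pericyte genes 3 of 5 were lower and 1 higher, with sums of 225 to 258 against 314 to 429 CPM, and 2 of 7 macrophage genes were lower (54 to 60.3 against 53.9 to 70.8 CPM). The part of these markers in the changes of Hspb6, Hspb7 and Cryab was not tested.

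Ace was compared with DMSO2 at both times, and Hspb3 was the gene with the lowest log2 fold change at each. At 6 hours, 1 of the 8 genes was lower and 0 higher, against 31.7% of all genes called, 16.5% as higher and 15.2% as lower. Hspb3 had a lowest, median and highest level of 19.9, 22.2 and 24 CPM after Ace, against 37.2, 40.1 and 46.5 CPM in DMSO2, with no overlap (log2 fold change -0.90, SE 0.084, edgeR FDR = 1.3e-13). Ranges did not overlap for 3 of the 8 genes (Hspb1, Hspb3 and Hspb8) and for 24.5% of all genes. Hspb1 (log2 fold change -0.25, edgeR FDR = 0.038) and Hspb8 (log2 fold change -0.21, edgeR FDR = 0.061) were not called. Both were called, making 3 genes lower, in a fit of the compared groups alone and without the 3 libraries named above. None of these 3 libraries belongs to Ace or DMSO2. Leaving them out could act here only through the fit that all groups share, which includes the estimate of spread. Of the marker genes, 6 of 8 fibroblast, 3 of 6 endothelial and 2 of 7 macrophage genes were lower after Ace at 6 hours. So were 1 of 5 smooth muscle and pericyte genes and 1 of 10 cardiomyocyte genes, and 0 was higher in any list. The part of these markers in the change of Hspb3 was not tested.

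At 24 hours after Ace, 3 of the 8 genes were lower and 0 higher, against 37.2% of all genes called, 18.2% as higher and 19.1% as lower. Hspb3 stood at 16.2, 18.9 and 20.9 CPM against 30.9, 33.7 and 38.4 CPM (log2 fold change -0.86, SE 0.081, edgeR FDR = 5.6e-14). It was about the same distance below its control as at 6 hours, and the difference between the times was 0.03 (95% interval -0.20 to 0.26). Hspb1 stood at 224, 235 and 242 CPM against 288, 291 and 311 CPM, with every Ace library below every control (log2 fold change -0.35, SE 0.095, edgeR FDR = 0.0014). Ranges did not overlap for 3 of the 8 genes, Hspb1, Hspb3 and Hspb8, and for 26.9% of all genes. Hspb8 was not called (log2 fold change -0.18, edgeR FDR = 0.097), but it was in a fit of the compared groups alone and without the 3 libraries named above. Those 3 libraries are again not among the ones compared here. Hspb2 (log2 fold change -0.21, edgeR FDR = 0.0073) lost its call in 9 of 14 fits that left out 1 library, with values of -0.24 to -0.18. The summed fibroblast markers were 7250 to 9280 CPM after Ace and 15100 to 18900 CPM in DMSO2, with 8 of 8 genes lower. The cardiomyocyte markers were 41300 to 55900 against 40600 to 51100 CPM, with 1 of 10 higher and 4 lower. Also lower were 3 of 6 endothelial, 5 of 7 macrophage and 4 of 5 smooth muscle and pericyte genes, with 0 higher. The part of any of these lists in the change of Hspb3 was not tested.

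The 2 DMSO controls differed at 6 hours. In 1% DMSO, 6 of the 8 genes were higher than in 0.25% DMSO and 0 lower, against 16.5% of all genes called, 9.87% as higher and 6.6% as lower. Their median log2 fold change was 0.62 over the 8, against 0.008 over all genes. Hspb6 had a lowest, median and highest level of 156, 323 and 388 CPM in DMSO1 and of 124, 166 and 181 CPM in DMSO2 (log2 fold change 0.97, SE 0.14, edgeR FDR = 1.1e-07). Hspb8 stood at 184, 363 and 437 CPM against 177, 193 and 199 CPM (log2 fold change 0.83, SE 0.093, edgeR FDR = 4.4e-10). Hspb1 stood at 337, 662 and 719 CPM against 324, 344 and 399 CPM (log2 fold change 0.76, SE 0.098, edgeR FDR = 1.8e-08). In all 3 genes, library 3 lay inside the range of DMSO2 and the other 5 libraries of DMSO1 lay above it. Cryab, Hspb3 and Hspb7 were higher by 0.68, 0.57 and 0.51, and Cryab was the 1 gene of the 8 whose ranges did not overlap, as for 5.07% of all genes.

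**Figure D3:**
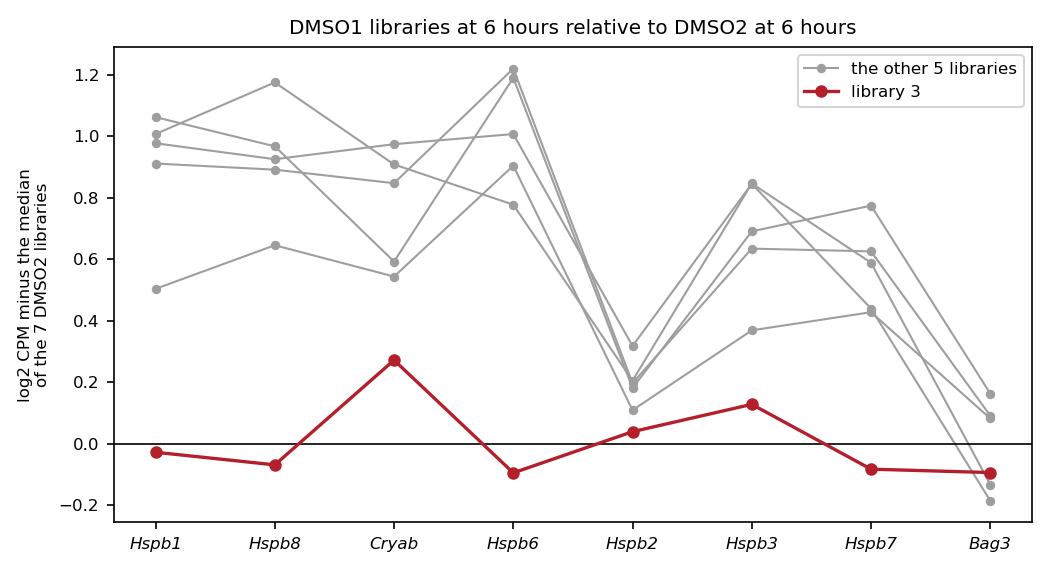
log2 CPM of the 8 genes in each of the 6 libraries of DMSO1 at 6 hours (lines) minus the median of the 7 DMSO2 libraries at 6 hours. Library 3, in red, is the lowest line for 7 genes, with Hspb1, Hspb6, Hspb7 and Hspb8 at or just below the DMSO2 median, while Bag3 runs from -0.19 to 0.16 and Hspb2 from 0.04 to 0.32.

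Without the 3 libraries that lay apart, the same number of genes, 6, was called between the controls, and Hspb6 was at 1.11 and Hspb8 at 0.96. Bag3 was not called (log2 fold change 0.04, 95% interval -0.09 to 0.17), nor was Hspb2 (log2 fold change 0.18, edgeR FDR = 0.039). In DMSO1 at 6 hours the fibroblast markers were lower than in DMSO2 for 7 of 8 genes, with sums of 6500 to 10900 against 9690 to 14500 CPM, and library 3 stood at 9870 CPM. Also lower were 5 of 6 endothelial and 3 of 5 smooth muscle and pericyte genes, with 0 higher in these lists. Of the cardiomyocyte genes 3 of 10 were higher and 2 lower, and 0 of 7 macrophage genes was called. The part of any of these lists in the difference was not tested. At 24 hours 0 of the 8 genes was called between the controls in edgeR's test, against 0.433% of all genes (0.137% higher and 0.295% lower), and the log2 fold changes lay between -0.16 and 0.25. At 24 hours the ranges overlapped for all 8 genes, and 1.7% of all genes had ranges that did not. At an unadjusted p below 0.05, 0 of the 8 was found, and the DESeq2 test also called 0. A fold change of 5FU is therefore taken against a control that was higher for 6 of these genes at 6 hours, and the level after 5FU is given beside it above.

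Differences between the times were tested directly, as the drug effect at 24 hours minus that at 6 hours. For Dox, 3 genes were higher and 3 lower in this difference, against 64.8% of all genes called, 34% as higher and 30.8% as lower. Bag3 differed by 1.08 (SE 0.090, edgeR FDR = 7.4e-17), from below its control at 6 hours to its level at 24 hours. Cryab differed by 0.88 and Hspb8 by 0.51, both further above the control at 24 hours. The mean of Cryab itself fell after Dox, from 2150 to 1410 CPM, while DMSO2 fell from 1200 to 427 CPM. The mean of Hspb8 went from 293 to 329 CPM after Dox and from 190 to 149 CPM in DMSO2. Hspb7 differed by -1.81, Hspb2 by -1.50 and Hspb3 by -1.21, and Hspb2 was above its control at 6 hours and below it at 24. Hspb1 was higher at both times, and its difference between them was not called (-0.02, 95% interval -0.28 to 0.25). For 5FU, 4 genes were higher in the difference and 0 lower, against 39.5% of all genes called, 20.3% as higher and 19.2% as lower. They were Hspb3 (1.23), Hspb6 (1.05), Hspb7 (0.91) and Hspb8 (0.55). The fall of DMSO1 between the times is part of each of these values. After 5FU the mean went from 26.7 to 35.4 CPM for Hspb3 and from 329 to 401 CPM for Hspb6. It went down from 2950 to 2240 CPM for Hspb7 and from 241 to 163 CPM for Hspb8. In DMSO1 the 4 genes went, in the same order, from 61.2 to 34.4, 309 to 182, 3290 to 1330 and 338 to 157 CPM. For Ace, 0 of the 8 was called in edgeR's test, against 11.6% of all genes (5.58% higher and 6.06% lower), with differences of -0.11 to 0.22. None had an unadjusted p below 0.05, and DESeq2 also called 0.

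The drugs were also set against each other. Dox and Ace share the DMSO2 control and the same DMSO share, so their libraries were compared directly. At 6 hours 6 genes were higher after Dox and 2 lower, against 62.1% of all genes called (30.6% higher and 31.4% lower), and at 24 hours 3 were higher and 3 lower, against 80.6% (40.7% higher and 39.9% lower). Ranges did not overlap for 7 of the 8 genes at 6 hours and 5 at 24 hours, against 44.6% and 66.4% of all genes. Hspb1, Hspb8 and Cryab were higher after Dox than after Ace at both times, and Hspb7 was lower at both. Hspb2 and Hspb3 were called in opposite directions. Hspb2 was higher after Dox at 6 hours (log2 fold change 0.35) and lower at 24 hours (-1.09), without overlap at either time. Hspb3 was higher at 6 hours (log2 fold change 0.94, SE 0.084, edgeR FDR = 2.3e-15). At 24 hours Hspb3 was lower, with overlapping ranges (-0.31, SE 0.085, edgeR FDR = 0.00083). Because 5FU has its own control, the Dox effect minus the 5FU effect was tested. At 6 hours 5 genes were higher in this difference and 1 lower, against 45.9% of all genes called (22% higher and 24% lower), led by Hspb1 (1.42, SE 0.14) and with Bag3 the lower one (-0.95, SE 0.093). At 24 hours 3 were higher and 4 lower, against 71.1% (35.8% higher and 35.4% lower), and Hspb7 differed by -2.87 (SE 0.12, edgeR FDR = 9.5e-31), with a fall after Dox and a rise after 5FU. Hspb6 was also lower in that difference (-0.85, SE 0.19, edgeR FDR = 7.3e-05).

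With a log2 fold change of at least 1 in size required beside the FDR, at 6 hours 1 of the 8 genes passed after 5FU (Hspb3, against 6.03% of all genes), 0 after Ace (2.64%) and 1 after Dox (Bag3, 15.4%). At 24 hours 1 passed after 5FU (Hspb6, 10.2%), 0 after Ace (6.12%) and 5 after Dox (Cryab, Hspb8, Hspb7, Hspb2 and Hspb3, 39.1%). Between the controls 0 passed at 6 hours (1.13%) and at 24 hours (0.055%), and over time in the controls 2 did (Cryab and Hspb7, 8.58%). In the time differences 2 passed for 5FU (Hspb3 and Hspb6, 7.2%), 0 for Ace (2.34%) and 4 for Dox (Hspb7, Hspb2, Hspb3 and Bag3, 25.9%). Between the drugs 3 passed in Dox minus 5FU at 6 hours (13.6%) and 6 at 24 hours (36.7%), and 2 in Dox against Ace at 6 hours (14.4%) and 5 at 24 hours (36.2%).

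Cryab and Hspb2 are neighbours whose gene spans overlap in GRCr8, over 1331 of the 1576 bases of Hspb2. The spans are not those of the Ensembl v96 transcripts to which the reads were aligned. The study's methods give default settings for kallisto and name no use of strand, so reads from the stretch they share may not be told apart. The ratio of Cryab to Hspb2 counts was 5.29 ± 0.392 (SD, n = 7) in DMSO2 at 6 hours and 8.32 ± 0.871 (SD, n = 7) after Dox for 6 hours. At 24 hours it was 2.61 ± 0.254 (SD, n = 7) in DMSO2, 3.52 ± 0.682 (SD, n = 7) after Ace and 21.1 ± 4.11 (SD, n = 7) after Dox. In DMSO1 at 24 hours it was 3.05 ± 0.501 (SD, n = 6) and after 5FU 3.76 ± 0.332 (SD, n = 6), with overlapping ranges of 2.55 to 3.92 and 3.21 to 4.12. The lowest ratio of a Dox library at 24 hours was 15, in library 7, and the highest in any other group was 9.75. Hspb6 and Lin37 overlap by only 5 bases, at their ends.

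**Figure D4:**
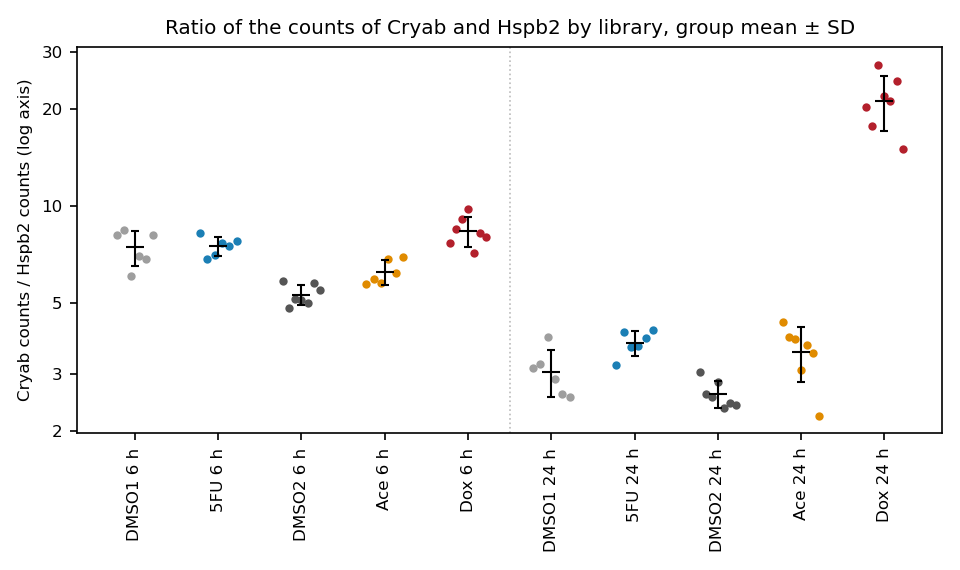
Ratio of the estimated counts of Cryab to those of Hspb2 in each library (points, log axis) by group, with the group mean and SD in black. The 7 libraries of Dox at 24 hours lie between 15 and 27.4, above all other libraries, and the other groups at 24 hours lie between 2.23 and 4.34.

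The rest of the pathway is described by lists of known genes, of which 39 of 49 were in the table. The list of inducible chaperones and their cofactors, the Hsp70, Hsp90 and Hsp40 machinery, had 16 of 18 genes in the table. After Dox for 6 hours 11 of these rose and 3 fell, and after 24 hours 11 rose and 4 fell, with medians of 0.31 and 0.33, against 0.003 over all genes at each time and 64.2% and 81.4% of all genes called. Hspa1b, the inducible Hsp70, had a lowest, median and highest level of 96.3, 154 and 189 CPM after Dox for 6 hours, against 22.2, 24.2 and 26 CPM in DMSO2. At 24 hours it stood at 359, 482 and 517 CPM against 7.86, 8.9 and 10 CPM, with no overlap at either time (log2 fold changes 2.68 and 5.70, SE 0.10 and 0.12). Its near-identical copy Hspa1a is not among the genes analysed here, so how reads were split between the copies is uncertain. Hsp90aa1 rose at both times (1.09 and 1.10), and Hsph1 (1.35) and Hspa4l (1.74), both Hsp110-type cofactors, passed a 2-fold change at 24 hours. Serpinh1, the collagen chaperone of the endoplasmic reticulum and a fibroblast product, fell by 1.85 on the log2 scale at 24 hours. Dnajb1, an Hsp40, was lower at 6 hours (-0.40) and higher at 24 hours (0.35).

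After 5FU the same list had 2 genes higher and 7 lower at the early time, then 12 higher and 2 lower at the late one, with medians of -0.09 and 0.40, against 47.9% and 55.8% of all genes called. Between the controls at 6 hours, 7 of the 16 genes were higher in 1% than in 0.25% DMSO and 0 lower, against 16.5% of all genes called. The early 5FU values of the list are therefore taken against a control that was itself higher for 7 of its genes. Hspa1b stood at 21.2, 22.2 and 25.1 CPM after 5FU for 24 hours, against 8.04, 8.88 and 12.7 CPM in DMSO1 (log2 fold change 1.26, SE 0.13). After Ace, 4 rose and 1 fell by 6 hours, while 6 rose and 1 fell by 24 hours, where Hspa1b was higher by 1.13, against 31.7% and 37.2% of all genes called. Of the heat shock factors, all 3 were in the table. Hsf1, the main activator of the heat shock response, was higher after Dox by 0.37 at 6 hours and by 0.42 at 24 hours. Hsf2 was higher at 6 hours (0.18) and lower at 24 hours (-0.48). Hsf4, a factor best known from the lens, stood at 13.9, 17.1 and 23.2 CPM after Dox for 24 hours, against 0.57, 1.54 and 2.25 CPM in DMSO2 (log2 fold change 3.61, SE 0.18), and at 6 hours its log2 fold change was 2.80. After 5FU, Hsf2 was higher at 6 hours (0.23), and the other values of the 3 factors after 5FU and Ace were not called, with log2 fold changes from -0.08 to 0.25 and edgeR FDRs from 0.011 to 0.77.

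The list of chaperone-assisted selective autophagy, the route in which Bag3 and Hspb8 act, had all 10 genes in the table. After Dox, 5 rose and 1 fell by 6 hours, while 5 rose and 3 fell by 24 hours, against 64.2% and 81.4% of all genes called. Synpo2, the adaptor that links Bag3 to autophagosome formation, had a median of 61.6 CPM after Dox for 6 hours against 179 CPM, and of 88.4 against 177 CPM at 24 hours (log2 fold changes -1.53 and -1.02, SE 0.090 and 0.089). It was also lower after 5FU, by 1.09 on the log2 scale at 6 hours and by 0.45 at 24 hours. Hspa8, the constitutive Hsp70 of the complex, was not called at 6 hours of Dox (-0.08) and fell by 1.20 at 24 hours. Flnc, filamin C, which is both a client and the binding partner of Hspb7, fell by 1.21 at 24 hours of Dox, from a median of 617 to 269 CPM, and had a log2 fold change of 0.20 (not called) at 6 hours. Ywhag, a 14-3-3 protein, was higher by 1.47 and Sqstm1, the autophagy receptor p62, by 0.37 at 24 hours of Dox. Stub1, the ubiquitin ligase CHIP, was higher by 0.23 at 6 hours and was not called at 24 hours (0.06). After 5FU the list had 4 genes higher and 3 lower at the early time, then 5 higher and 3 lower at the late one, against 47.9% and 55.8% of all genes called. After Ace it had 5 higher and 0 lower, then 3 higher and 0 lower, against 31.7% and 37.2%.

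Of the other BAG proteins 3 of 5 were in the table. Bag1, a nucleotide exchange factor of Hsp70, had a lowest, median and highest level of 264, 296 and 317 CPM after Dox for 24 hours, against 82.1, 84.2 and 89.1 CPM in DMSO2, a log2 fold change of 1.77 (SE 0.060). In the same libraries Bag3 was not called. At 6 hours Bag1 was higher by 0.58, while Bag3 was lower. Of the filament and Z-disc clients 7 of 10 were in the table, and after Dox 4 rose and 1 fell by 6 hours, while 2 rose and 4 fell by 24 hours, against 64.2% and 81.4% of all genes called. Des, desmin, was higher at both times (0.81 and 0.69), and so was Synm, synemin, a partner of desmin (2.06-fold and 2.63-fold). Ldb3, a Z-disc protein also called Cypher, had a median of 114 CPM after Dox for 24 hours against 1140 CPM (log2 fold change -3.42, SE 0.091). Vim, vimentin, a filament of fibroblasts, fell by 1.25 after Dox and by 1.38 after 5FU at 24 hours. Of the other small heat shock proteins 1 of 4 was in the table, Ift25 (formerly Hspb11), whose log2 fold changes in the 6 drug comparisons were between -0.03 and 0.39.

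**Figure D5:**
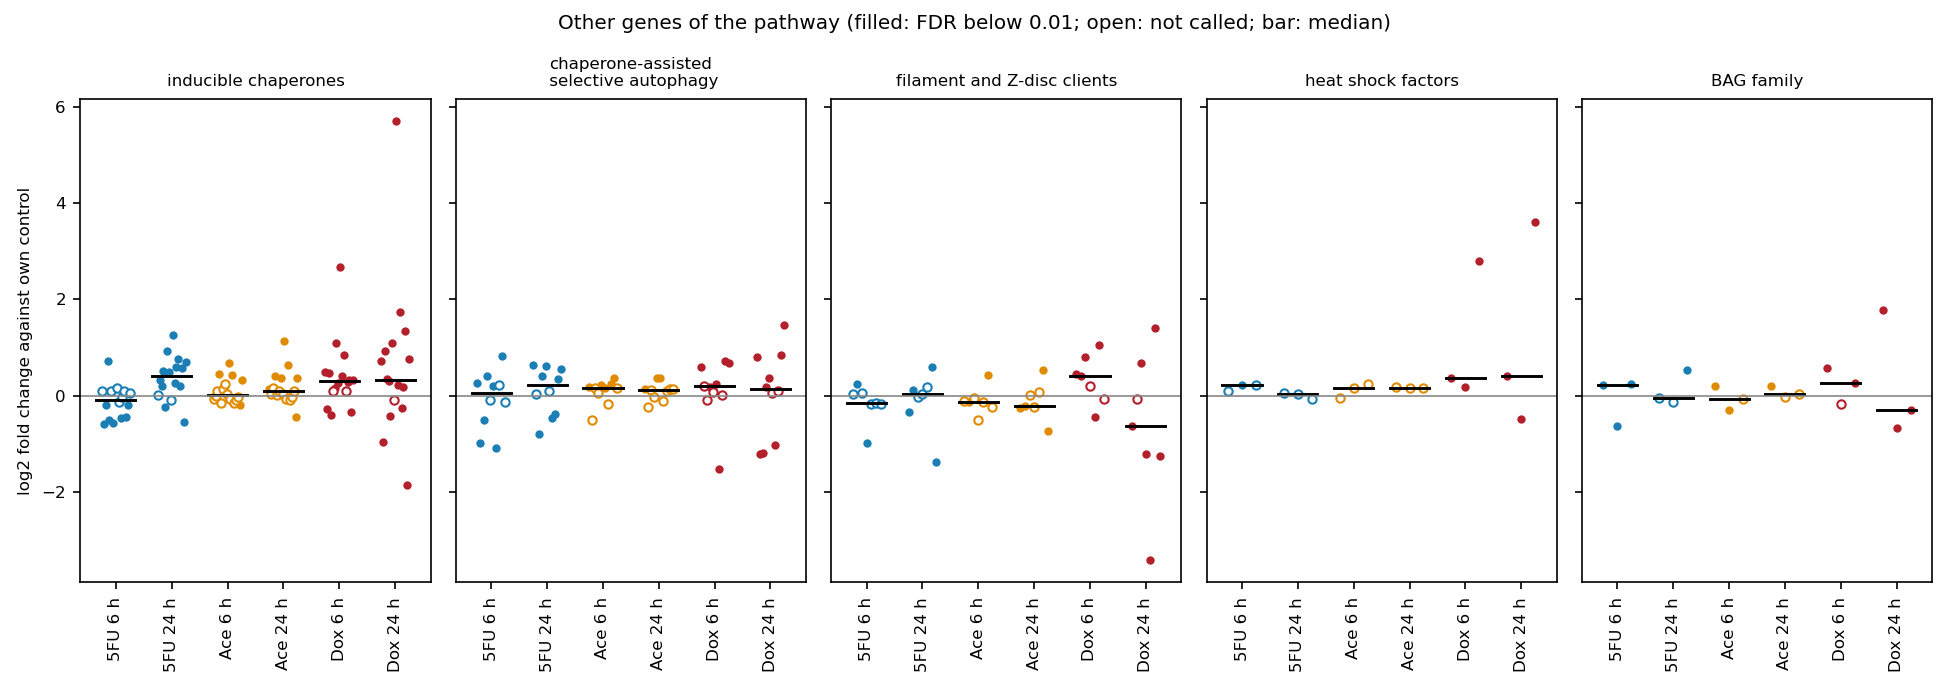
log2 fold change of each gene of 5 pathway lists in the 6 comparisons of a drug with its own control. Filled points have an FDR below 0.01, open points were not called, and bars are list medians; Hspa1b (5.70) and Hsf4 (3.61) are the highest points and Ldb3 (-3.42) the lowest, all after Dox for 24 hours.

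The pattern of each gene over the 10 group means was compared with that of 10508 genes with a mean count of at least 100. These correlations describe 10 means that share culture time and scaling, and carry no test. The closest to Hspb1 was Hspb8 (Pearson r = 0.96), and the closest to Hspb8 was Hspb1. After Hspb8, Hspb1 was closest to Ifit1bl and Actn1 (0.96 and 0.95), and after Hspb1, Hspb8 was closest to Fzd2 and Anp32e (0.95 and 0.94). Cryab was closest to Ipo5, Timp1 and Nme1 (each 0.99), and it correlated with both Hspb1 and Hspb8 at 0.84. Hspb7 was closest to Farsb, Dkc1 and Rtcb (each 0.99), and Hspb2 to Mrps27, Galk1 and Plp2 (each 0.99). Hspb7 and Hspb2 correlated at 0.94 with each other, and Hspb7 at -0.12 with Hspb1. Hspb3 was closest to Myadm, Capn2 and Pmp22 (0.931, 0.919 and 0.895), and Hspb6 to Dnaja4, Mtpap and B4galt5 (0.953, 0.913 and 0.905). Bag3 was closest to Tmem186, Nrf1 and Yju2 (0.99, 0.94 and 0.93), and its correlation with the other 7 genes lay between -0.16 and 0.35. Of the 24 genes named, 14 were also among the 3 closest over the 65 single libraries.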

How the data were processed

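Transcripts were measured by RNA sequencing in 65 libraries of primary neonatal rat cardiomyocytes. Per the study's methods, the authors pseudo-aligned paired 150 bp reads of polyA RNA with kallisto 0.46.0 to the Ensembl v96 rat transcriptome, used tximport to obtain values per Entrez gene, and dropped genes whose counts were low in all samples. The deposited values are estimated counts, whole numbers that were not normalized for depth or length. Groups came from the labels. Columns carry no replicate numbers. Symbols came from RefSeq's GRCr8 tables (14009 of 14554 identifiers matched), which also gave the promoter windows; coordinates are printed for these alone, in GRCr8, and none come from the Ensembl build.

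The filter asked for 10 counts in any 1 library, and all genes met it. Counts were scaled with TMM factors (0.859 to 1.07) and fitted with edgeR 4.0.16 (glmQLFit, glmQLFTest) in R 4.3.3, in 1 model with the 10 groups as terms and 16 contrasts. Genes with a Benjamini-Hochberg FDR below 0.01 over all 14554 genes are said to be called, higher or lower. CPM are counts scaled to a common library size with these factors. log2 CPM used a prior count of 2. Counts were simulated for all genes and libraries, and 14490 genes were fitted after the filter. In Dox at 24 hours 100 genes were changed by 0.5 and 100 by 1 on the log2 scale, as many up as down. The changed genes were drawn from those with a mean count of at least 100, so genes with lower counts were not tried. In the test of Dox against DMSO2 at 24 hours, 92% and 99% of the changed genes were recovered, and 2 unchanged genes were called. The measured comparison had 81.4% of all genes called, so these figures may not carry over to it. No pair of libraries within a group was a duplicate: over 180 pairs the lowest chi-square per gene was 2.98, where sampling noise gives about 1. Intervals are 95%.

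Alternatives were the DESeq2 1.42.0 Wald test, DESeq2 size factors, library size alone, only the compared groups in the fit, filterByExpr, no filter, an FDR below 0.1, an added log2 fold change of 1, and each library left out in turn. Leaving out 3 libraries together, and the time change within each DMSO share with the difference of the shares, were chosen after seeing the data.

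The 8 genes and the gene lists were chosen with earlier results of these data known. Named genes outside the 8 are, in each list and drug comparison, up to 3 with the largest increase and up to 3 with the largest decrease among those called with a log2 fold change of at least 1, and always Hsf1, Hsf2, Hspa8, Stub1, Synpo2, Sqstm1, Hspa1b, Dnajb1, Des and Flnc. For each of the 8, the 3 genes of highest Pearson correlation are named. Other values given for the named genes, and Ift25, were added after they were seen.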

Additional observations from a re-analysis of the deposited data

Results flagged for a closer look

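In 24 tests of whether a drug's effect differed between the times, 10 passed the threshold in edgeR's test. For 5FU the effect at 24 hours minus that at 6 hours was 1.23 for Hspb3, 1.05 for Hspb6, 0.91 for Hspb7 and 0.55 for Hspb8 on the log2 scale. For Dox it was -1.81 for Hspb7, -1.50 for Hspb2, -1.21 for Hspb3, 0.51 for Hspb8, 0.88 for Cryab and 1.08 for Bag3. The time change of the controls also differed between the DMSO shares for 4 of the 8 genes. The share of all genes called is given with that test above. The change of DMSO1 minus that of DMSO2 was -0.92 for Hspb1, -0.56 for Hspb3, -0.55 for Hspb7 and -0.77 for Hspb8.

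Among the 80 sets of values, 1 for each gene and group, a Dixon test singled out 2 libraries, where chance gives about 1 in 20. Cryab was at 811 CPM in library 7 of Dox at 24 hours, with the next library at 1390 CPM (gap over range 0.698, critical value 0.568). Hspb2 was at 158 CPM in library 7 of Ace at 24 hours, with the next at 145 CPM (0.591, critical value 0.568). The same Ace library had the lowest Cryab of its group, 354 CPM.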

How the results depend on the processing

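No paired analysis was possible because the columns of the count table carry no replicate numbers. No call of the 8 genes changed with DESeq2, DESeq2 size factors, filterByExpr or no filter. An added log2 fold change of 1 left, of the 8 genes, 1 called in 5FU at 6 hours, 0 in Ace at 6 hours, 1 in Dox at 6 hours, 1 in 5FU at 24 hours, 0 in Ace at 24 hours, 0 between the controls at 6 hours, 2 in the 5FU time difference, 2 in the controls over time, 3 in Dox minus 5FU at 6 hours and 2 in Dox against Ace at 6 hours. In the pathway lists it left 1 in 5FU, 0 in Ace and 5 in Dox at 6 hours, and 2, 1 and 14 at 24 hours, of 21, 14, 31, 28, 16 and 34. An FDR below 0.1 gave 4 of the 8 genes in Ace at 6 hours and 5 at 24 hours, and 22 pathway genes in Ace at 6 hours. The compared groups alone gave 3 genes in Ace at 6 hours. Without the 3 libraries there were 3 in Ace and 5 in 5FU at 6 hours. The share of all genes called was not counted at an FDR below 0.1 or in these refits. Their counts therefore have nothing to be set against, and no excess is read from them.

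Signs turned only for values that were not called. Without the 3 libraries, Hspb6 in 5FU at 6 hours was -0.049 and Bag3 in Dox minus 5FU at 24 hours 0.011. With DESeq2, and likewise with its size factors, Bag3 was 0.011 in Dox at 24 hours and 0.022 in Dox minus 5FU at 24 hours. With filterByExpr, Bag3 in 5FU at 24 hours was 0.003 and Hspb1 in the Dox time difference 0.005. Library size alone, which moved the median of all genes by -0.15 in Dox at 6 hours, by 0.27 in the Dox time difference and by -0.11 in Dox against Ace at 6 hours, turned Bag3 in Dox at 24 hours (0.017), in Dox minus 5FU at 24 hours (0.036), in the Ace time difference (0.054) and between the controls at 6 hours (-0.041), Hspb1 in the Dox time difference (0.189), Hspb2 in the Ace time difference (0.034), Hspb3 in Dox at 6 hours (-0.116), Hspb6 in Ace at 6 hours (-0.014) and Hspb7 between the controls at 24 hours (0.003). It also ended the calls of Hspb2 in Dox at 6 hours (0.05) and in Ace at 24 hours (-0.15), and of Hspb6 in Dox minus 5FU at 6 hours (0.58). The compared groups alone ended those of Hspb2 in Dox at 6 hours, of Hspb8 in 5FU at 6 hours and of Hspb6 in Dox minus 5FU at 6 hours.

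With each library left out in turn, the counts of the 8 genes stayed within 1.5 times. Signs turned for Hspb3 (0.000 to 0.081) and Bag3 (-0.029 to 0.028) in 5FU at 24 hours, Hspb6 in 5FU (-0.045 to 0.164) and Ace (-0.038 to 0.076) at 6 hours, Bag3 in Ace at 6 hours (-0.063 to 0.011), in Dox at 24 hours (-0.057 to 0.029) and in Dox minus 5FU at 24 hours (-0.039 to 0.026), Hspb3 (-0.034 to 0.072) and Hspb7 (-0.077 to 0.025) between the controls at 24 hours, Hspb2 in the 5FU time difference (-0.008 to 0.072) and Hspb1 in the Dox time difference (-0.112 to 0.037). The compared groups alone, and likewise the fit without the 3 libraries, added the calls of Hspb6 in Dox at 24 hours and in the Dox time difference and of Hspb8 in Ace at 24 hours. Library size alone added Bag3 in 5FU at 6 hours (-0.241) and Hspb1 in the 5FU time difference (0.452). Without library 3 of DMSO1 at 6 hours, Hspb7 in 5FU at 6 hours (-0.25) and Hspb1 in the 5FU time difference (0.52) were called, and without library 7 of Dox at 6 hours, Hspb6 in the Dox time difference (-0.57) was called. The causes were not tested. The controls over time gave 8 genes in DMSO1 alone and 6 in DMSO2 alone, where Hspb1 (-0.239) and Hspb6 (-0.044) were not called. Every library held at least 215 counts of each of the 8 genes, and the effect of depth was not tested.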
